A study of Macaca mulatta with 8 samples.

Results

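SLPI, SERPINC1 and TIMP1 encode secreted protease inhibitors and were 3 of the 835 genes that could be named on arrays of 2 neocortical areas of the rhesus macaque. They were chosen by name with their A46 and M1 values already known, so the differences between the areas are given as a description with no test. Each gene was matched through its RefSeq identifier to 1 probe: A_01_P005468 for SLPI, A_01_P000854 for SERPINC1 and A_01_P015721 for TIMP1. SLPI was well above background on all 4 A46 arrays and all 4 M1 arrays, as was TIMP1. SERPINC1 was so on 3 A46 arrays and 4 M1 arrays.

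Total RNA came from area 46 (A46), a prefrontal association area sampled on the banks of the principal sulcus, and from the forelimb part of the primary motor cortex (M1). Per the labels, 4 untreated, group-housed animals aged 2.6 to 2.7 years gave both areas, from the left hemisphere, and all were perfused with cold heparinised saline after a pentobarbital overdose. Each area was measured on 4 single-colour (Cy3) oligonucleotide arrays numbered 1 to 4, and no label ties a number to an animal. The series title sets the question of which genes differ in expression between the motor and the prefrontal area.

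Secreted protease inhibitors set how long an active enzyme survives outside the cell. SLPI, the secretory leukocyte protease inhibitor, has WAP domains and blocks serine proteases of leukocytes such as neutrophil elastase and cathepsin G. SERPINC1 is antithrombin, a serpin that traps thrombin and factor Xa and acts faster when bound to heparin, and most of it in plasma is made in the liver. TIMP1 is an inhibitor of matrix metalloproteinases, and in the brain it is best known as a product of glia. No sequence of these genes or probes was used here.

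The arrays differed in signal. The probe at the 75th percentile read 1359 to 1852 scanner units on A46 arrays and 1232 to 2008 on M1 arrays, and 71.4% to 77.3% of the probes were well above background. The median negative control lay at 4.90 units on M1 replicate 4 and between 1.11 and 2.80 on the other 7 arrays. The later 2 of the 4 scan days held A46 replicates 3 and 4 with M1 replicate 4, which scored 37.0 to 44.8 on the first principal component, against -37.4 to -16.6 for the other 5 arrays. Of 14698 tested probes, 27 differed between the areas (0.184%; limma, adjusted p under 0.05), and 380 (2.59%) with the replicate number as a block. The labelled cortex could be checked in part: FGFR3 of astrocytes and UGT8, ZNF488 and TSPAN2 of oligodendrocytes were well above background on all 8 arrays, and OTX2 of choroid plexus and MPO of leukocytes on none. MPO was listed as a blood marker, and of the other blood markers matched, HBE1 was so on all 8 arrays and HBG2 on 2 A46 and 3 M1 arrays. None of the 15 neuronal, 11 microglial or 11 meningeal markers was matched to a probe.

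SLPI was lower in A46 than in M1 on every array. Its signal was 20.7, 22.3, 27.8 and 33.0 scanner units on A46 arrays 1 to 4, against 97.1, 58.1, 88.2 and 124 units on M1 arrays 1 to 4. The lowest M1 array thus read above the highest A46 array before any normalization. Its probe was dim in either area, above 28.8% to 31.3% of the probes in signal on A46 arrays and above 39.7% to 45.7% on M1 arrays. Signals of different probes do not compare amounts of transcript.

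Levels in log2 units, with each array's 75th percentile set to 0, gave the same picture. SLPI stood at -6.04, -5.94, -6.06 and -5.74 on A46 arrays 1 to 4, against -3.67, -4.46, -4.20 and -4.02 on M1 arrays 1 to 4. The A46 arrays lay close together, with more spread among the M1 arrays, and the areas did not overlap. Among all tested probes, 514 (3.5%) were lower in A46 without overlap. The mean level was -5.95 ± 0.14 in A46 and -4.09 ± 0.33 in M1 (SD, n = 4 each), a log2 difference of -1.86 ± 0.18 (SE), or 3.63-fold lower in A46. It ranked 15th in size among the 14698 tested probes and 9th among those lower in A46. The median size over all tested probes was 0.15. In tissue RNA, fewer cells of a type and less RNA per cell cannot be told apart.

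**Figure D1:**
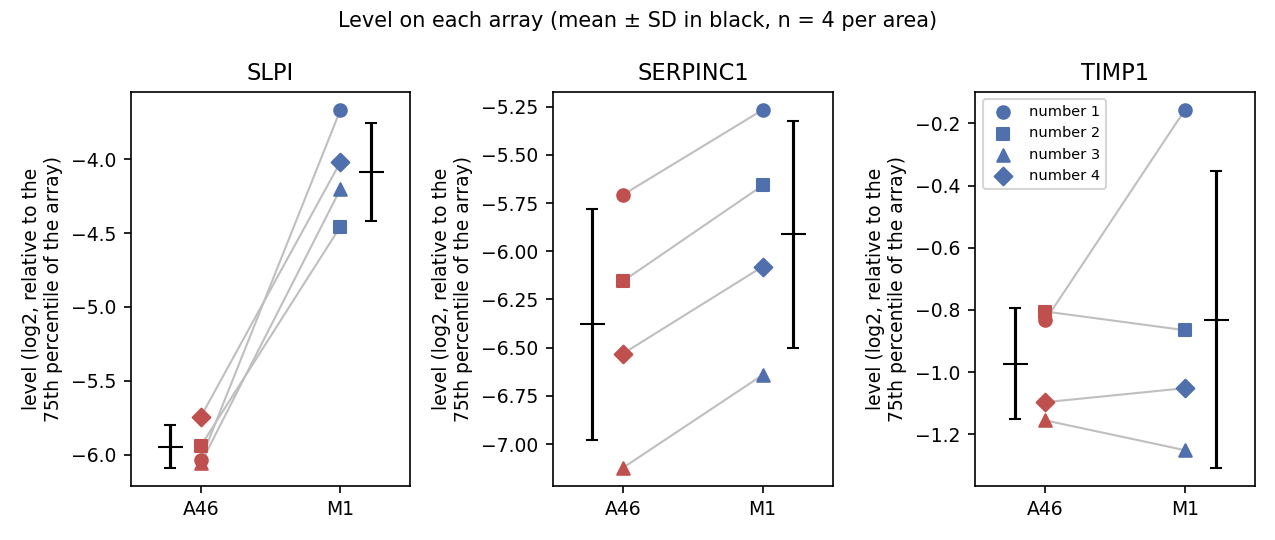
Level of SLPI, SERPINC1 and TIMP1 (log2, with the array's 75th percentile at 0) on the A46 arrays (red) and the M1 arrays (blue), with grey lines joining arrays of the same number and black bars for the mean ± SD of 4 arrays. The SLPI levels of A46 all lie below those of M1, the SERPINC1 lines run parallel, and the TIMP1 levels overlap, with M1 array 1 highest at -0.16.

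The SLPI difference was present in every same-numbered pair, as the lack of overlap required. It was -2.37, -1.49, -1.86 and -1.73 in the pairs numbered 1 to 4. The pair numbered 1, which shared a slide and a scan day, was the widest, since M1 replicate 1 held the highest SLPI level. Within scan days the log2 difference was -1.61 on day 1 (1 A46 and 2 M1 arrays), -2.37 on day 2 and -1.73 on day 3 (1 array of each area), while day 4 held 1 A46 array alone. Leaving out each array in turn gave differences of -1.98 to -1.72.

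SLPI was dim in A46, at 20.7 to 33.0 units, a range that overlaps that of SERPINC1 there (13.3 to 26.0 units). The lowest signal of any probe well above background was 6.12, 5.31, 13.7 and 13.7 units on A46 arrays 1 to 4. On M1 arrays 1 to 4 it was 5.24, 5.99, 5.87 and 22.3 units. The 2 SLPI spots on an array differed by a median of 0.11 and at most 0.21 log2 units, far less than the areas did. The first and second spots alone gave -1.88 and -1.84. The signal was 6.54 to 9.94 times the error that the scanner software assigns to the spot. The spread within areas (pooled SD 0.26) was wider than that of 47.3% of all tested probes. Another start from the scanner values gave a smaller fold of the same sign. With the median spot signal, normexp and an added offset of 50 units, above the A46 signals of 20.7 to 33.0 units, the log2 difference was -0.93, or 1.91-fold. Which of these 3 changes moved it was not tested.

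**Figure D2:**
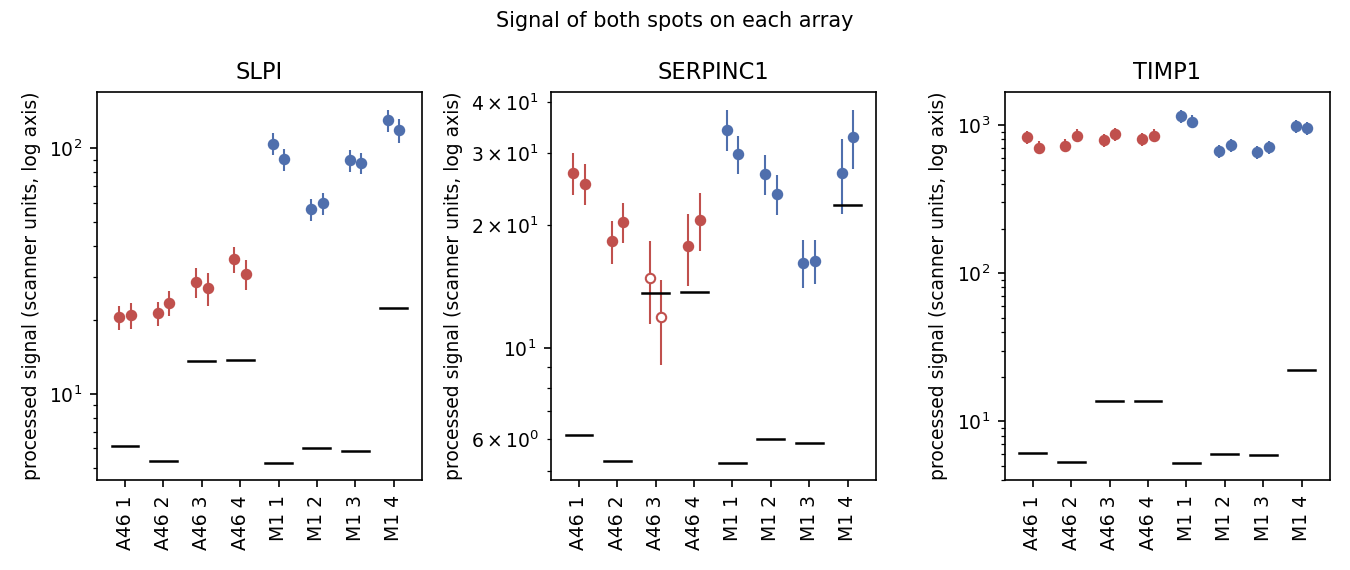
Processed signal of the 2 spots of each probe on each array (scanner units, log axis), A46 in red and M1 in blue, with bars for the error given by the scanner software. Open circles are spots not well above background, which occur for SERPINC1 on A46 array 3 alone, and black lines mark the lowest signal of any probe well above background on that array.

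SERPINC1, the antithrombin gene, had a dim probe in either area and fell to the detection limit on A46 replicate 3. Its signal was 26.0, 19.3, 13.3 and 19.1 scanner units on A46 arrays 1 to 4, against 32.0, 25.2, 16.3 and 29.7 units on M1 arrays 1 to 4. On A46 replicate 3 neither spot was well above background, and the lowest signal of any probe that was lay at 13.7 units there. M1 replicate 4 had the highest such limit, 22.3 units, which its SERPINC1 signal exceeded.

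SERPINC1 levels followed the array number more than the area. They stood at -5.71, -6.15, -7.12 and -6.53 on A46 arrays 1 to 4, against -5.27, -5.66, -6.64 and -6.08 on M1 arrays 1 to 4 (log2). In either area number 1 was highest, then 2, 4 and 3, and the areas overlapped. Deviations from the area mean had the same sign in 4 of 4 same-numbered pairs, against 2 of 4 for SLPI and 3 of 4 for TIMP1.

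The gap between the areas was therefore small beside the spread within them and even across the pairs. The mean level was -6.38 ± 0.60 in A46 and -5.91 ± 0.59 in M1 (SD, n = 4 each), a log2 difference of -0.47 ± 0.36 (SE), or 1.38-fold lower in A46. By pair it was -0.44, -0.50, -0.48 and -0.45, and with the replicate number as a block the SE was 0.08. SERPINC1 was well above background throughout M1 but not A46, so it entered the tested probes through the area where it was higher. Of all tested probes, 2388 (16.2%) were lower in A46 in 4 of 4 pairs, and no reading of the SERPINC1 direction is drawn from that share. The SD of the pair differences was 0.026, smaller than in any of the 924 other tested probes within 0.5 log2 units of its level, where the median was 0.38. It was also smaller than the gap between the 2 spots of the probe on an array, 0.18 in the median and up to 0.32.

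The size of the SERPINC1 difference depended on which arrays were set against each other. Within scan day 1, where A46 replicate 2 met M1 replicates 2 and 3, the difference was -0.0050, and in the 5 arrays of the first 2 days it was -0.08. It was -0.44 and -0.45 on days 2 and 3, whose arrays share a number. With a fixed term for the scan day it stood at -0.27 ± 0.25 (SE), and after normexp at -0.17. Leaving out A46 replicate 3 gave -0.22, leaving out M1 replicate 1 gave -0.25, and leaving out M1 replicate 3 gave -0.71.

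TIMP1 had a bright probe, and its A46 and M1 levels overlapped. Its signal was 763, 785, 832 and 827 scanner units on A46 arrays 1 to 4, against 1105, 699, 682 and 969 units on M1 arrays 1 to 4, above 64.3% to 73.5% of the probes of an array. In log2 levels it stood at -0.83, -0.80, -1.15 and -1.10 on A46 arrays 1 to 4, against -0.16, -0.87, -1.25 and -1.05 on M1 arrays 1 to 4. The A46 arrays all lay within the range of the M1 arrays. M1 replicate 1 was highest, and the lowest array was also from M1.

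The mean TIMP1 level was -0.97 ± 0.18 in A46 and -0.83 ± 0.48 in M1 (SD, n = 4 each), a log2 difference of -0.14 ± 0.23 (SE). By pair it was -0.68, 0.06, 0.10 and -0.05, so that the metalloproteinase inhibitor was lower in A46 in 2 pairs and higher in 2. Without M1 replicate 1 the difference was 0.08, and without M1 replicate 3 it was -0.28. Within scan days 1 to 3 it was 0.25, -0.68 and -0.05. The spread within areas exceeded that of 75.2% of the 1731 tested probes within 0.5 log2 units of its level, while the 2 spots of an array differed by a median of 0.13. M1 replicate 1 was also the highest M1 array for SLPI and SERPINC1. It carried 147 spots called outliers, as its slide partner A46 replicate 1 carried 220, against at most 4 on the other arrays. None of the spots of the 3 genes was among them, and the part of this in the TIMP1 level was not tested.

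Of the other protease inhibitors, 6 of 89 listed genes were named and 1, PI3, was tested. PI3 encodes elafin, a WAP-domain inhibitor of elastase like SLPI. It stood at -6.75, -6.00, -5.95 and -6.68 on A46 arrays 1 to 4, against -5.73, -6.05, -7.80 and -5.71 on M1 arrays 1 to 4 (log2). Its M1 level on replicate 3 was not well above background and lay far below the others, and the areas overlapped. The mean difference was -0.02 ± 0.46 (SE; limma adjusted p = 0.996), with 2 pairs lower in A46 and 2 higher. Whether SLPI and PI3 differ in their area difference was not tested. SERPINA7, SERPINB5, WFDC12 and the cystatin gene CST11 were not well above background on any array. No other TIMP was matched to a probe.

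PI3, WFDC12 and MATN4 are also among the 3 protein-coding genes on either side of SLPI in the gene table used for names. MATN4, a perineuronal matrix gene, differed by -0.35 ± 0.30 (SE; limma adjusted p = 0.851). TIMP1 lies there within the span of SYN1, a synaptic vesicle gene, to which no probe was matched. No neighbour of SERPINC1 was matched to a probe.

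Proteases, their cofactors and binding partners could be read for 6 of 180 listed genes, only some of which are targets of these inhibitors. Another 11 were named but not tested, 7 of them not well above background on any array. None of the 6 passed in limma, nor with the replicate block, where 0.184% and 2.59% of all tested probes did, and 2, F7 and PROS1, had an unadjusted p under 0.05, as did 9.44% of all tested probes. F7 and PLG entered the test through A46 alone, where they were higher, so no count of directions is given.

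F2, prothrombin, whose active form is a target of antithrombin, stood at -3.38, -3.86, -3.70 and -2.38 on A46 arrays 1 to 4, against -3.49, -4.19, -4.28 and -2.65 on M1 arrays 1 to 4 (log2). The areas overlapped, with the number 4 arrays highest in each area. The difference was 0.32 ± 0.43 (SE; limma adjusted p = 0.917; 0.161 with the block). F2 was higher in A46 in 4 of 4 pairs. The share of all tested probes with that direction was not counted, while 16.2% were lower in A46 in 4 of 4 pairs. F10, factor X, another antithrombin target, differed by 0.09 ± 0.15 (SE; limma adjusted p = 0.936).

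F7, the coagulation factor that starts the extrinsic pathway, stood at -5.75, -5.67, -5.65 and -5.68 on A46 arrays 1 to 4, against -6.29, -5.98, -6.18 and -6.40 on M1 arrays 1 to 4, where 3 arrays were well above background. The areas did not overlap, as was the case for 6.46% of all tested probes. Its difference of 0.53 ± 0.12 (SE) did not pass in limma (adjusted p = 0.155; 0.0580 with the block), nor in any alternative but the scan day as a random block (0.0128).

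PROS1, protein S, a cofactor of anticoagulant protein C, did not pass the test. It stood at -3.19, -3.36, -3.62 and -3.91 on A46 arrays 1 to 4, against -3.11, -3.18, -2.79 and -3.09 on M1 arrays 1 to 4. The areas did not overlap, as was the case for 6.46% of all tested probes. The difference was -0.48 ± 0.18 (SE; limma adjusted p = 0.419; 0.178 with the block). PLG, plasminogen, was well above background on all 4 A46 arrays but on 1 M1 array. The fitted difference of 1.21 ± 0.80 (SE; limma adjusted p = 0.751) therefore sets A46 against M1 values mostly not well above background. Its 2 other probes were not well above background on any array.

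ADAM9, a membrane metalloproteinase, was the single tested member of its list and differed by 0.10 ± 0.19 (SE; limma adjusted p = 0.946). CTSG, cathepsin G, a target of SLPI, was not well above background on any array, nor were MMP13, ADAM12 and MEP1B, while MMP25 was so on 1 M1 array and MEP1A on 2 A46 arrays. Neutrophil elastase and the gelatinases were not matched to a probe.

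**Figure D3:**
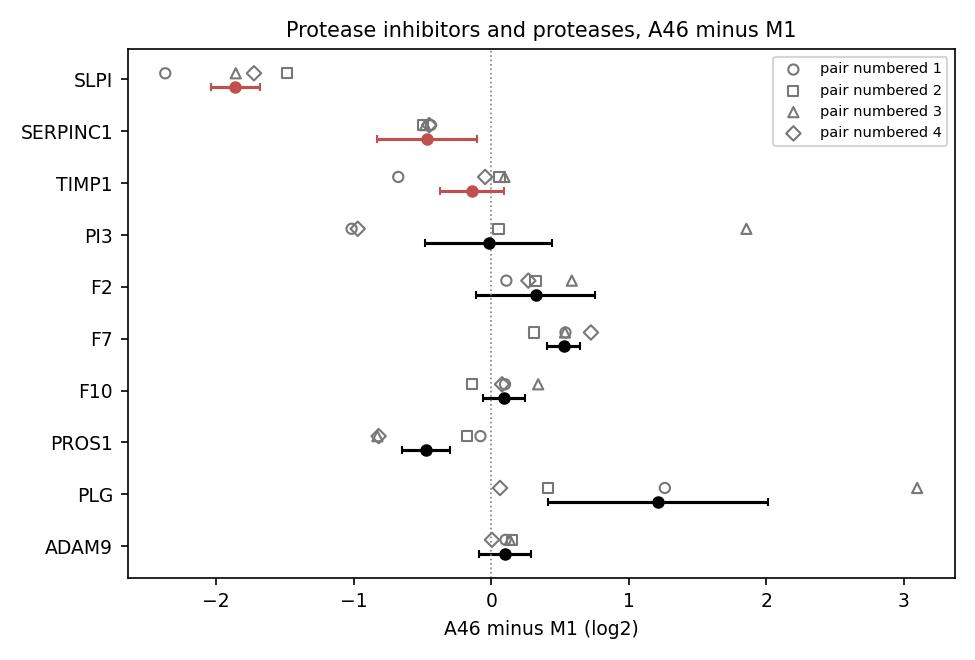
A46 minus M1 differences (log2) of SLPI, SERPINC1 and TIMP1 (red) and of the 7 other tested protease inhibitor and protease genes (black), filled circles with bars for the fit's SE and open symbols for the same-numbered pairs. SLPI lies at -1.86, and the other genes lie between -0.48 and 0.53 except PLG, which was well above background on 1 M1 array only.

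The named genes with the profile most like SLPI over the 8 arrays included 2 known from oligodendrocytes. Likeness was the root mean square distance between profiles centred on their own mean, over the 511 named genes well above background on all 8 arrays. ZNF488, a regulator of oligodendrocyte differentiation, was closest (0.43), then UGT8, which makes the myelin lipid galactocerebroside (0.53), MOSPD2, a membrane contact site protein (0.57), SCIN, the actin-severing protein scinderin (0.60), and KCNE5, a potassium channel accessory subunit (0.63). The median distance from SLPI was 0.99. All 5 were lower in A46 without overlap, as were 3.5% of all tested probes, which a profile like SLPI's calls for. The arrays within an area differed in order: among M1 arrays SLPI was highest on replicate 1 and lowest on replicate 2, while UGT8 was highest on replicate 2, at -1.14.

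Of 16 listed oligodendrocyte markers, 3 were matched and tested, 2 of which are named above for their likeness to SLPI. None of the 3 passed in limma, where 0.184% of all tested probes did. UGT8 and ZNF488 passed with the block, where 2.59% of all tested probes did. All 3 had lower values in A46, as did 47.4% of all tested probes. Their mean level lay between -5.54 and -5.07 on A46 arrays and between -4.42 and -3.70 on M1 arrays (log2). UGT8 differed by -1.64 ± 0.28 (SE; limma adjusted p = 0.0624; 0.0287 with the block), ZNF488 by -1.37 ± 0.25 (0.0841; 0.0391) and TSPAN2 by -0.38 ± 0.11 (0.287; 0.111). Their part in the SLPI difference was not tested.

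Markers of blood, astrocytes and endothelium rested on 1 tested gene each. HBE1, an embryonic globin gene on the blood list, stood at -6.61 to -5.32 on A46 arrays and -6.44 to -5.36 on M1 arrays. FGFR3, of astrocytes, stood at 2.69 to 3.08 on A46 arrays and 2.56 to 2.98 on M1 arrays. ACKR1, of venous endothelium, stood at 1.17 to 1.93 on A46 arrays and 0.61 to 1.54 on M1 arrays, so that it ran opposite to SLPI (0.66 ± 0.25 SE; limma adjusted p = 0.430; 0.0473 with the block). HBG2, a fetal globin gene on the blood list, was well above background on 2 A46 arrays and 3 M1 arrays and was not tested. Its values were lower in A46 in 4 of 4 pairs, as were those of 16.2% of all tested probes. The log2 differences were -0.76, -2.42, -0.56 and -0.72, with a mean of -1.11. HBA1, HBA2 and HBB on the blood list were not matched to a probe. How far HBE1 and HBG2 track the blood in the samples was not tested. The part of blood in the SLPI difference was not tested.

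SERPINC1 and TIMP1 had other neighbours in profile. SERPINC1 was closest to IRF7, a transcription factor of the interferon response (0.26), CXCL16, a chemokine (0.27), SIGLEC14, a leukocyte receptor (0.27), TPP1, a lysosomal peptidase (0.29), and NLRP3, an inflammasome sensor (0.31), where the median was 0.63. All 5 of these were lowest or next to lowest on A46 replicate 3 within A46. None of them passed in limma (adjusted p 0.731 to 0.989; 0.131 to 0.870 with the block). TIMP1 was closest to APBB1IP, an adaptor of integrin signalling (0.15), PARP14, an ADP-ribosyltransferase (0.18), HLCS, which attaches biotin to carboxylases (0.19), PHKA2, a phosphorylase kinase subunit (0.19), and SH3KBP1, an endocytic adaptor (0.19), with a median of 0.42. All 5 were highest on M1 replicate 1 among the M1 arrays, as TIMP1 was. None passed in limma (adjusted p 0.772 to 0.981; 0.132 to 0.867 with the block).

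**Figure D4:**
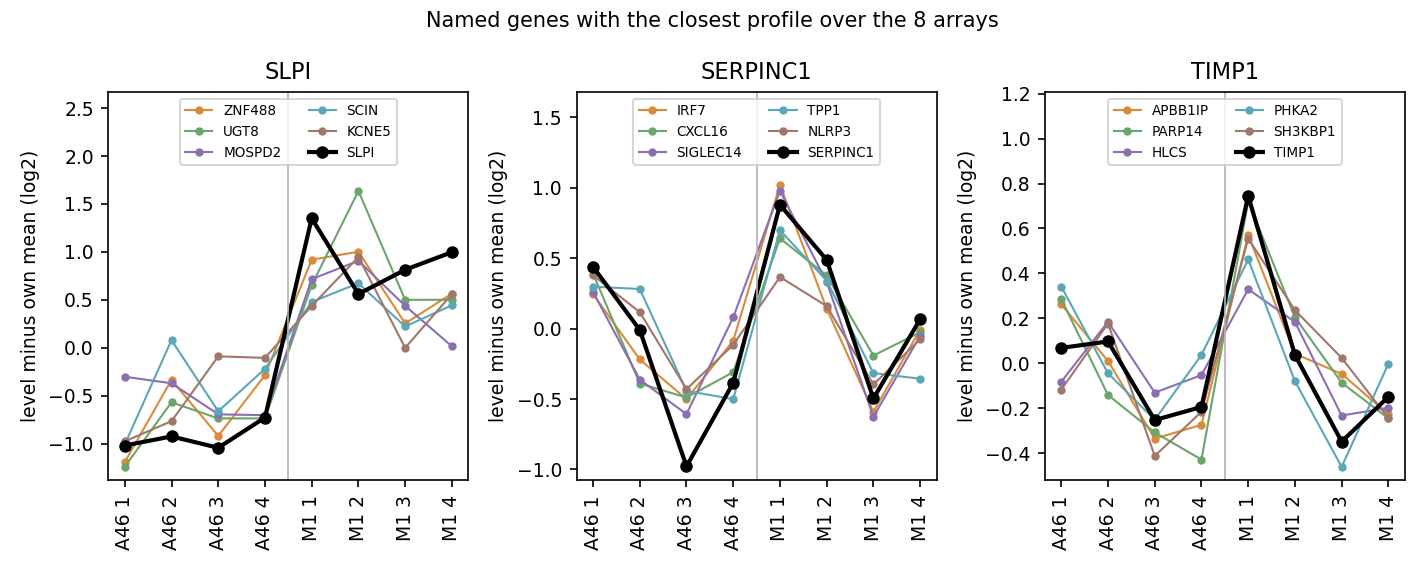
Level minus the gene's own mean (log2) on the 4 A46 and the 4 M1 arrays for SLPI, SERPINC1 and TIMP1 (black) and the 5 named genes nearest to each (colours); lines only join the points of 1 gene. The step between the areas sets the SLPI profile, and SERPINC1 is high on the arrays numbered 1 and low on those numbered 3 in each area.

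Across all 22 alternative settings the SLPI difference stayed below 0, from -1.99 to -0.93, and the SERPINC1 difference from -0.71 to -0.08. That of TIMP1 ran from -0.28 to 0.08 and was below 0 in 20 of them.

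**Figure D5:**
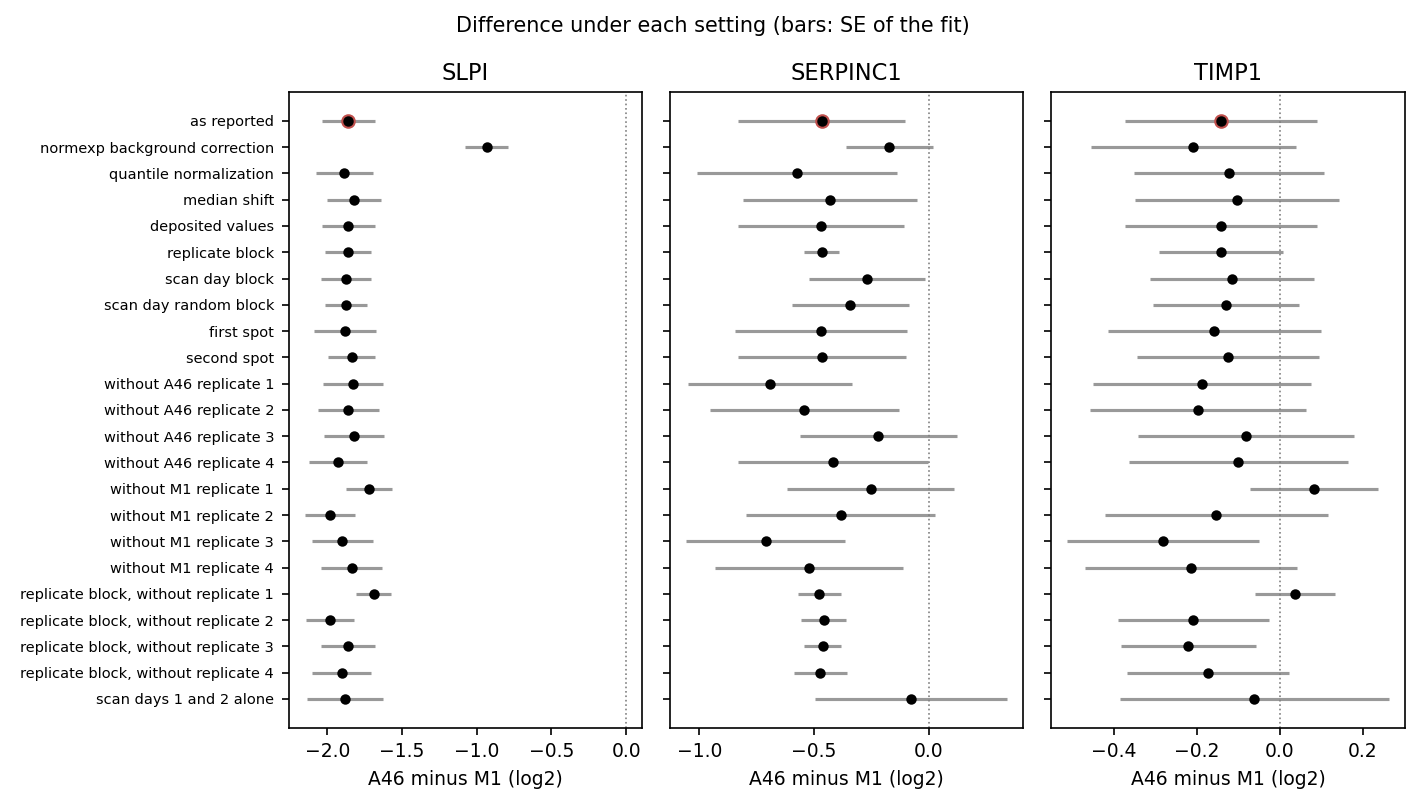
A46 minus M1 difference (log2) of SLPI, SERPINC1 and TIMP1 as reported (red) and under 22 alternative settings (black), with bars for the SE of each fit. SLPI moves under normexp alone, to -0.93, while TIMP1 turns above 0 without M1 replicate 1.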

How the data were processed

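Intensity per spot, in scanner units, was deposited as scanner output of Agilent Feature Extraction 10.7.3.1, per the file headers, already background-subtracted and detrended within the array, with probes designed on rheMac2. The authors' deposited table gives log2 values of the same arrays (column medians -0.06 to 0.09), centred on a baseline not given in the sources used here. Array differences in it and in the scanner values lay a median of at most 0.0091 apart.

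Control spots and outlier spots (0 to 220 per array) were left out, and none was saturated. Both spots of a probe were averaged as log2 signals, and the array's 75th percentile was taken off. A probe entered the test if every spot kept was well above background throughout A46 or throughout M1. The test was limma 3.58.1 in R 4.3.3 (residual degrees of freedom 6; Benjamini-Hochberg over 14698 probes at 0.05), checked on simulated data. The number of arrays limits the precision (median SE 0.18).

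RefSeq identifiers were matched without versions to the gene table of T2T-MMU8v2.0: 942 of 5583 matched, 898 with a gene name. No coordinates are given, since the assemblies differ. The members and gene lists were chosen with earlier results of these data known. Named were the 3 genes, listed genes that passed or had the smallest p (up to 3 per list; others after their values were seen), and the 5 nearest profiles of each. The brightest probe stood for a gene with several. Of the listed genes that were named, 1 is not reported here.

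Deviations from the area mean correlated between same-numbered arrays (numbers 1 to 4: r = 0.73, 0.63, 0.17 and 0.86), all above the cut-off of 0.1. The number was therefore used as a pair in the block and in the pair differences. A46 replicate 3 with M1 replicate 4 (0.48) and A46 replicate 2 with M1 replicate 3 (0.26) were also above the cut-off. Same-numbered arrays shared a scan day for numbers 1, 2 and 4 but not for 3, and A46 replicate 2 shared day 1 with M1 replicate 3. Pairing by animal and by scan day therefore cannot be told apart by this correlation. The main limma fit took the 8 arrays as independent, although the same animals gave both areas. Without a tie to animals, p-values measure the spread between these samples. Normexp was run on the median spot signal.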

Additional observations from a re-analysis of the deposited data

Results flagged for a closer look

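A single array stood apart from its area's other 3 in 7 of the 66 groups looked at, and about 3.3 would do so by chance. None of the 6 groups of SLPI, SERPINC1 and TIMP1 was among them. PI3 was low on M1 replicate 3 (-7.80, others -6.05 to -5.71). PLG was high on M1 replicate 4 (-5.03, others -8.10 to -7.75), as was ACKR1 (1.54, others 0.61 to 0.69). UGT8 was high on M1 replicate 2 (-1.14, others -2.28 to -2.13). The negative control signal was high on M1 replicate 4 (4.90 units, others 1.22 to 1.35). Spots called outliers were many on A46 replicate 1 (220, others 0 to 4) and on M1 replicate 1 (147, others 2 to 3). The causes were not tested.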

How the results depend on the processing

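Of 22 alternatives each, SLPI moved by more than its spread within areas in 1, normexp (-0.93), and SERPINC1 and TIMP1 in none. For SERPINC1 and TIMP1 that spread (pooled SD 0.59 and 0.36) exceeded the size of the difference itself (-0.47 and -0.14). A fall to 0 would thus not count as a move for either gene. Leaving out 1 array gave -1.98 to -1.72 for SLPI, -0.71 to -0.22 for SERPINC1 and -0.28 to 0.08 for TIMP1. The replicate block left the 3 differences at -1.86, -0.47 and -0.14. The limma count of 27 probes became 42 after normexp, 380 with the replicate block, 153 with a fixed term for the scan day and 722 with the day as a random block. Keeping all dim probes gave 0 (1371 at an unadjusted p below 0.05). The count was 0 in the first 2 scan days alone (1159), and 0 to 4 without 1 array (975 to 1830): 4 without M1 replicate 4 and 0 without any other array. With the replicate block it was 3, 0, 403 and 2 without the pair numbered 1, 2, 3 and 4 (2309, 2402, 3395 and 2235). The causes were not tested. Among the other protease inhibitors no setting gave a call, and among the proteases 1, F7, passed with the scan day as a random block. The replicate block changed no call among these lists. The blocks by scan day at random, the first 2 days and the pairs left out were chosen after seeing the data. A random block by slide could not be fitted, since 7 slides held the 8 arrays. SERPINC1 was not well above background on 1 of 8 arrays.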
